A study of Mus musculus with 4 samples.

Results

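Ependymal-marker spots are the spots of 4 *Nf1*+/- mouse brain sections in which transcripts of ependymal genes stood in excess, and they were compared here with the other spots of the same sections. They were chosen by their own counts of 7 genes of ciliated ependymal cells: *Foxj1*, *Ccdc153*, *Tmem212*, *Dynlrb2*, *Rsph1*, *Mia* and *Cfap126*. Unique molecular identifiers (UMIs) each count 1 captured mRNA molecule. For every spot, the UMIs of these genes were set against the number its total UMIs and the share of the genes in its section would give, and the excess over the root of that number was its score. A spot with a score of at least 3 and at least 2 of the 7 genes detected was picked. Spots with under 500 UMIs and spots holding at least 3 of 7 choroid plexus genes (*Folr1*, *Kcnj13*, *Clic6*, *Kl*, *Slc4a5*, *Prlr* and *F5*) had been left out before. The rule picked 209 of the 7412 spots used, of 7668 spots deposited, and left 7203 other spots.

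The study asked how mutation of *Nf1*, which encodes the RAS regulator neurofibromin, alters cells of the oligodendrocyte lineage. Its spatial experiment profiled fresh frozen brain of mice with the genotype *Nf1*+/-, so the ependymal-marker and the other spots share this genotype, and wild-type brain was not analysed here. The methods place the mice of the study on a C57/BL6 background, and the sections are called 1 to 4, numbers that only name them. Age, sex and treatment are not in the labels, which also leave out how many mice gave the 4 sections, so every n is a number of sections. The p-values rest on sums per section, and those of edgeR also on a spread shared over all genes, described with the test below.

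Ependymal cells form the epithelium that lines the brain ventricles. Most carry tufts of motile cilia, whose beating moves cerebrospinal fluid along the ventricle wall, and each cilium is built on a ring of doublet microtubules with dynein arms, radial spokes and a central apparatus. Along the lateral ventricles the ependyma lies next to a zone of neural progenitors and neuroblasts, and it continues into the choroid plexus epithelium, which secretes the fluid. A Visium spot captures the mRNA of the tissue above it and can hold several cells of different types, so that a gene with a raised level need not be made by the ciliated cells. In such sums, fewer cells of a type and less RNA per cell cannot be told apart.

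Sections 1, 2, 3 and 4 held 41, 68, 60 and 40 ependymal-marker spots, 2.62 to 2.93% of the spots used in each. Their median depth was 10886, 14025, 7043.5 and 7861 UMIs, against 14964, 15361, 8904 and 12742 UMIs in the other spots, so that they were shallower in every section. This difference is not independent of the rule, as the same number of rule-gene UMIs scores higher in a shallower spot. In section 3, a spot with 2 such UMIs was picked at 7134 total UMIs, and another with 2 was not picked at 7266. How much of the difference in depth follows from the rule was not tested. Summed over spots, the ependymal-marker spots of a section gave 339491 to 986338 UMIs and the other spots 18427537 to 36015607, and the section totals ran from 19261710 to 37002379. The mitochondrially encoded share was 9.55 to 13.03% in the ependymal-marker spots and 13.8 to 16.2% in the other spots. Sections 1 and 4 stood apart from sections 2 and 3 in their choroid plexus: 137 and 66 spots were left out there as choroid plexus spots, against 0 in section 2 and 5 in section 3. Of 3083 barcodes, 2447 occurred in several sections, since a barcode marks a position on the slide.

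The spots varied widely in how strongly they carried the 7 genes. The highest score in a section was 55.3 to 71.4, the median 4.74 to 6.18. All 7 genes were detected in 3, 11, 5 and 1 spots of sections 1 to 4, and just 2 of them in 16, 14, 26 and 26 spots, so that section 4 had the thinnest evidence per spot, with 65.0% of its picked spots resting on 2 genes. Near the threshold, the lowest picked spots scored 3.02 to 3.09 with 2 or 3 UMIs of the 7 genes, and the highest unpicked spots with at least 2 of the genes scored from 2.90 to just under 3. A further 47 spots scored at least 3 through 1 gene alone and stayed among the other spots. The picked spots held 31.3 to 52.2% of the UMIs of the 7 genes, the remainder being spread over the other spots.

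The levels of the 7 rule genes describe the choice and were not tested in the spots they picked. *Foxj1*, the transcription factor that switches on the motile cilium programme, stood at 53.4, 70.97, 106 and 47.1 CPM (UMIs of the gene per 1000000 UMIs of the sum) in the ependymal-marker spots of sections 1 to 4 and at 4.51, 2.58, 3.25 and 2.33 CPM in the other spots. *Ccdc153*, a coiled-coil gene of ciliated cells, stood at 91.2, 124, 234 and 32.4 against 2.57, 2.08, 2.70 and 0.760 CPM. *Mia* stood at 167, 103, 163 and 165 against 10.4, 4.39, 4.28 and 6.08 CPM. To check the label on genes that had not picked the spots, spots were picked by *Foxj1*, *Ccdc153*, *Tmem212* and *Dynlrb2* alone and the remaining genes were read. The log2 fold change was then 4.47 (standard error 0.22) for *Rsph1*, a radial spoke head gene, 4.02 (0.21) for *Mia* and 4.82 (0.36) for *Cfap126*, with an adjusted p of 3.72e-85 for *Rsph1* and 8.73e-80 for *Mia* by edgeR. *Cfap126* and *Ccdc153* were under 1 CPM in the other spots of at least 1 section, so their values are a description. With the roles exchanged it was 4.03 (0.29) for *Foxj1*, 5.37 (0.25) for *Ccdc153*, 5.31 (0.23) for *Tmem212* and 4.44 (0.25) for *Dynlrb2*. Leaving out any section kept these values between 3.72 and 5.65.

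For the comparison across genes, each section gave 1 sum of UMIs over its ependymal-marker spots and 1 over its other spots. edgeR's quasi-likelihood test, blocked by section, was run on these sums for 14086 genes, with p-values adjusted by Benjamini-Hochberg. A gene is called when its adjusted p is under 0.05, and a log2 fold change is given ± its standard error unless an SD is named. In all, 1244 genes were called higher (8.83%) and 1312 lower (9.31%), and 3896 had an unadjusted p under 0.05. The edgeR fit gave the shared spread over all genes a weight of 424 degrees of freedom, against 3 from the sections of a gene, so its standard errors understate the spread of genes whose ratio differs between sections. The mean and SD of the log2 ratios of the 4 sections are therefore given beside the results that turn on it. A gene can enter the test through the ependymal-marker spots alone, when these reach the filter's minimum in all 4 sections. Such a gene had to be higher in every section where its other spots lay under that minimum. Counts over gene lists are therefore also given for the 13401 genes at 1 CPM or more in the other spots of every section, of which 7.7% were called higher and 9.78% lower. With total-UMI scaling in place of edgeR's TMM, the median of all genes shifted by 0.106 on the log2 scale, and 66.9% of the calls were higher, against 48.7% with TMM.

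Genes of the motile cilium outside the rule were higher in the ependymal-marker spots of every section. Of 115 genes listed under 5 headings (axonemal dyneins, their assembly and docking factors, radial spokes and central apparatus, the ruler and nexin-dynein regulatory complex, and tektins with other doublet proteins), 113 had a UMI and 92 were tested. Summed, the listed genes made up 2104, 2064, 3403 and 1087 CPM in the ependymal-marker spots of sections 1 to 4 and 557, 527, 550 and 517 CPM in the other spots, ratios of 3.77, 3.92, 6.18 and 2.10. Section 4 was the lowest and section 3 the highest, and the 2 groups of sums did not overlap. Among the 61 listed genes at 1 CPM or more in the other spots, 49 were called higher, 0 lower and 12 were not called, with a median log2 fold change of 1.89 against −0.03 over all genes passing the same floor. A further 31 listed genes were tested though under 1 CPM in the other spots of at least 1 section, and are not counted as support.

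The summed level of the listed genes rose with the score of the spots. In section 3 it was 537 CPM in spots with a score under 0, 603 CPM from 0 to under 3, 1239 CPM from 3 to under 6 and 5674 CPM at 6 or more. Section 4, with 21 spots at 6 or more, gave 510, 539, 691 and 1846 CPM in the same order. At a score of 20 or more, reached by 4, 16, 14 and 1 spots, the sum was 8709, 5216, 8063 and 9743 CPM. Single spots ranged from 0 CPM in 3 sections and 168 CPM in the other to between 7444 and 13621 CPM.

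**Figure D1:**
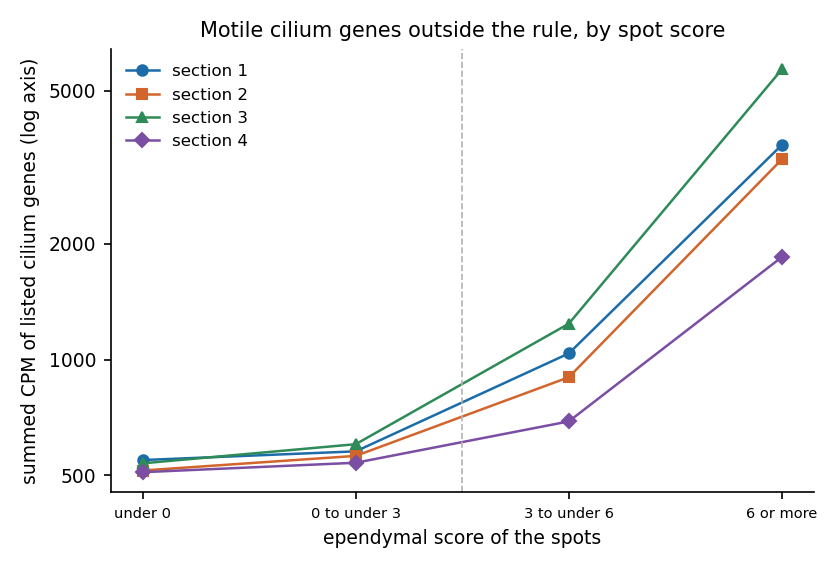
Summed CPM of the 115 listed motile cilium genes outside the rule (log axis) in spots grouped by ependymal score, with 1 line for each of the 4 sections and a dashed line at the threshold of 3. All 4 lines lie between 510 and 603 CPM left of the dashed line and reach 1846 to 5674 CPM at a score of 6 or more.

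Among the axonemal dyneins, the motors that bend the cilium, 5 of the 6 genes at 1 CPM or more in the other spots were called higher. *Dnah9*, an outer arm heavy chain, was counted at 20.02, 8.11, 28.6 and 5.89 CPM in the ependymal-marker spots of sections 1 to 4 and at 1.79, 1.06, 1.07 and 1.79 CPM elsewhere (log2 fold change 3.32 ± 0.45, adjusted p = 3.25e-11 by edgeR). *Dnal1*, which encodes a further light chain, was the exception, at 40.04, 36.5, 44.1 and 35.3 CPM against 28.7, 30.3, 26.7 and 33.9 CPM (log2 fold change 0.27 ± 0.18, adjusted p = 0.329 by edgeR). *Dnali1*, a light intermediate chain of the inner arms, stood at 31.1, 32.4, 68.3 and 17.7 against 1.31, 0.889, 1.21 and 0.705 CPM. It passed the filter through the ependymal-marker spots alone, as did the light chain gene *Tctex1d4* (log2 fold change 5.34 ± 0.48) and the heavy chain gene *Dnah6* (4.54 ± 0.46), so that these values are a description.

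Of the assembly and docking factors, which build dynein arms in the cytoplasm and anchor them to the doublets, 5 of the 10 genes past that floor were called higher. *Zmynd10* stood at 13.3, 30.4, 52.9 and 17.7 CPM against 5.19, 5.89, 4.60 and 4.18 CPM, a log2 fold change of 2.39 ± 0.29, adjusted p = 1.5e-13. *Ccdc103* rose by 1.83 ± 0.36, adjusted p = 1.12e-05. The 5 genes not called had log2 fold changes of 0.27 to 1.26. *Ccdc114*, of the docking complex (3.33 ± 0.56), and *Dnaaf1* (4.05 ± 0.81) entered through the ependymal-marker spots alone.

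Radial spoke and central apparatus genes, which regulate the beat, gave 16 of 18 genes past the floor called higher. *Cfap54*, a central apparatus gene, was counted at 40.04, 25.3, 50.7 and 8.84 CPM against 2.62, 2.83, 2.09 and 1.90 CPM (3.55 ± 0.33, adjusted p = 8.54e-22). *Rsph4a*, of the spoke head, rose by 3.76 ± 0.40, adjusted p = 5.95e-17. As a description of genes that entered through the ependymal-marker spots alone, *Ak7*, an adenylate kinase of the axoneme, stood at 64.5, 34.5, 44.1 and 11.8 CPM against 1.75, 1.00, 0.744 and 0.543 CPM, and the spoke gene *Lrrc23* had a log2 fold change of 4.37 ± 0.44.

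The list of the ruler and nexin-dynein regulatory complex, which space the dyneins and link the doublets, gave 8 of 10 genes past the floor called higher. It also holds *Cfap43*, *Cfap44* and *Cfap65*, axonemal genes that are not assigned here to either structure. *Iqcg* stood at 13.3, 19.3, 48.5 and 8.84 CPM against 1.84, 2.00, 2.70 and 1.68 CPM (3.27 ± 0.37, adjusted p = 4.57e-15). *Cfap65* rose by 3.21 ± 0.39, adjusted p = 1.38e-13. *Cfap44* (3.97 ± 0.47) entered through the ependymal-marker spots alone. *Cfap43* (3.78 ± 0.46, with 0 UMIs in the ependymal-marker spots of section 4) was under 1 CPM in the other spots of at least 1 section, so its value is a description.

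Tektins and other proteins of the doublet microtubules gave 15 of 17 genes past the floor called higher. *Fam183b*, the gene with the smallest p of all the listed cilium genes, stood at 131, 166, 245 and 41.2 CPM against 8.68, 8.91, 8.65 and 6.84 CPM, a log2 fold change of 4.01 ± 0.15, adjusted p = 3.01e-87 and a mean over sections of 3.90 ± 0.92 (SD, n = 4 sections). *1110017D15Rik* stood at 73.4, 71.98, 96.97 and 44.2 against 11.8, 10.9, 10.6 and 7.27 CPM (2.70 ± 0.19, adjusted p = 8.99e-36), *Meig1* at 51.2, 76.04, 94.8 and 17.7 against 9.02, 6.94, 6.74 and 5.43 CPM (3.02 ± 0.22, adjusted p = 6.99e-34). Both groups of sums were clear of each other for each of these genes. *Cfap20*, a doublet protein that cells without motile cilia also use, changed least among the called members, from 81.9, 83.2, 90.00 and 80.6 CPM to 136, 119, 176 and 106 CPM (0.55 ± 0.11, adjusted p = 2.74e-05).

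The 10 largest rises among the 803 called genes with at least 3 UMIs in the ependymal-marker spots of every section and the same direction in all of them were *Lrrc36* (5.74), *1700012B09Rik* (5.44), *Cdhr4* (5.42), *Gm10714* (5.16), *Ak7*, *Dnali1*, *Ccdc33* (4.86), *Hdc* (4.64), *Odf3b* (4.62) and *Spag8* (4.54), as log2 fold changes. Of these, *Ak7*, *Dnali1*, *Odf3b* and *Spag8* are on the cilium lists. *Cdhr4*, a cadherin-related gene, stood at 60.1, 46.6, 57.3 and 26.5 CPM against 1.41, 0.750, 1.49 and 0.597 CPM. Only *Odf3b* reached 1 CPM in the other spots of every section. The other 9 had passed the filter through the ependymal-marker spots alone and had to be higher where their other spots lay under its minimum.

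Promoter sequences are shown for 4 cilium genes, because RFX and fork head proteins such as FOXJ1 are known regulators of ciliary genes. The sequences come from RefSeq (build GRCm38.p6, of the same mouse assembly as the mm10 named in the submitters' processing notes) and cover the 250 bases before the annotated start, 5′ to 3′ on the strand of the gene. Capitals mark the RFX half-site GTTGCCA or its reverse complement. The genes are those with the largest log2 fold change among the 7 considered that had a match before the start, of the 49 cilium genes called higher at 1 CPM or more in the other spots. Promoters of a single chromosome were not considered for this choice, though the counts of promoters given below leave out no chromosome. *Mlf1*, *Pifo* and *Mns1* are of the doublet list and *Iqcg* is of the nexin-dynein list.
Mlf1 (chr3:67373847-67374096, plus strand): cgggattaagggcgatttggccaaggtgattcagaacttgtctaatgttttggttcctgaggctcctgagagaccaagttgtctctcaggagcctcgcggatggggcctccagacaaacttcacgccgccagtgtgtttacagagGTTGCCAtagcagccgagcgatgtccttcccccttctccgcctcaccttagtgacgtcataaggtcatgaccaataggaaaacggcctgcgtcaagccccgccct
Pifo (chr3:106001498-106001747, minus strand): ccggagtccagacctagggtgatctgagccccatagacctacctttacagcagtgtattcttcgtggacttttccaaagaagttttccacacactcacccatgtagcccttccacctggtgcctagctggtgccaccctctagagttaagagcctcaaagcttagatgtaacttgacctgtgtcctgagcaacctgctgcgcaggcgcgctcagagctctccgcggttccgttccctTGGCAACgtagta
Iqcg (chr16:33056187-33056436, minus strand): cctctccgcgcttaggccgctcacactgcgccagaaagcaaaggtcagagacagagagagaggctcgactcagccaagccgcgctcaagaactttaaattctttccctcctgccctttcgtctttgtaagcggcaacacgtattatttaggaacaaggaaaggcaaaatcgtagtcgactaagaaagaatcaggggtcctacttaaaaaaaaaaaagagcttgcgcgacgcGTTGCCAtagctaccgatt
Mns1 (chr9:72438279-72438528, plus strand): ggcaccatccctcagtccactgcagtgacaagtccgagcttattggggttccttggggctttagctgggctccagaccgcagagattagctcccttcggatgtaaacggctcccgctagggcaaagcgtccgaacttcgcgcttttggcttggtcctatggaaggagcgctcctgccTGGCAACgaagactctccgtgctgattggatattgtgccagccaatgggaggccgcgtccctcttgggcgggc

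Each window held 1 match, beginning 105 bases before the start in *Mlf1*, 13 in *Pifo*, 19 in *Iqcg* and 73 in *Mns1*. These 4 genes had log2 fold changes of 4.37, 3.53, 3.27 and 2.98. Of the 49 genes, 40 matched the promoter table by symbol, with 45 promoters of 300 bases (250 before to 50 after the start). The half-site, on either strand, was found in 9 of these (20%), against 4.38% of all 32851 promoters, 4.11% of the promoters of tested genes and 4.87% of the promoters of the other genes called higher past the same floor. The fork head motif TGTTTAC was found in 3 of the 45 (6.67%), against 3.65% of all promoters and 2.56% of those of tested genes, and *Mlf1* and *Cfap20* held both motifs. The letters of the 2 motifs leave no way for their matches to overlap, and a match is a description of the sequence and not a measured binding site.

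Genes that drive the formation of multiciliated cells were read as a list of their own. Of 23 listed, 16 were tested, and of the 13 at 1 CPM or more in the other spots, 2 were called higher and 0 lower. Among all genes past that floor, 7.7% were called higher and 9.78% lower, and the counts are not read as a result about the list. *Trp73* and *Deup1* passed the filter through the ependymal-marker spots alone and are described without a test. *Trp73*, which encodes the transcription factor p73, stood at 6.67, 6.08, 13.2 and 2.95 CPM against 1.65, 0.333, 0.558 and 2.33 CPM (2.86 ± 0.59 on the log2 scale). *Deup1*, a scaffold of the deuterosomes on which centrioles multiply, had 1, 3, 2 and 1 UMIs in the ependymal-marker spots of sections 1 to 4. Among the RFX factors, *Rfx2* rose by 2.60 ± 0.43, adjusted p = 7.63e-08 and *Rfx4* by 1.10 ± 0.27, adjusted p = 0.000718, whereas *Rfx3* had a log2 fold change of 0.49 ± 0.21, adjusted p = 0.0821 and was not called. The early regulators *Mcidas* and *Gmnc* had too few UMIs to be tested, with 1 and 2 UMIs in all the ependymal-marker spots. *Myb*, which is on in cells that are becoming multiciliated, had 5, 1, 10 and 0 UMIs in sections 1 to 4 and was not tested. *Ccno*, a cyclin of centriole amplification, had 0, 3, 0 and 0 UMIs (−0.94 ± 0.87, adjusted p = 0.537) and was not called.

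Intraflagellar transport and BBSome genes, which motile and primary cilia share, were mostly not called. All 36 were tested, 6 were called higher and 1 lower, and the median log2 fold change was 0.35. *Ift43* stood at 40.04, 62.9, 74.9 and 35.3 CPM against 24.8, 22.2, 25.8 and 23.1 CPM (1.12 ± 0.17, adjusted p = 2.09e-09). *Ttc30b* (1.49), *Ift80* (1.11) and *Ift172* (0.62) also rose, and *Kifap3*, a kinesin-associated gene, fell by 0.30 on the log2 scale, a call lost under total-UMI scaling (adjusted p = 0.162 by edgeR). Of 12 planar polarity genes, which orient the cilia, 2 were called higher and 1 lower. All genes of both lists were at 1 CPM or more in the other spots, where 7.7% of all genes were called higher and 9.78% lower. The counts of both lists are not read as a result about them. *Celsr1*, a seven-pass cadherin gene, stood at 11.1, 18.2, 19.8 and 11.8 CPM against 2.62, 2.39, 3.02 and 1.74 CPM (2.57 ± 0.40, adjusted p = 1.06e-08). *Vangl1* rose by 1.70 ± 0.56, adjusted p = 0.0191, with 0 UMIs in section 4, and was not called without section 1 or 3. *Celsr2* fell by 0.55 on the log2 scale (adjusted p = 0.000552 by edgeR), but was higher in section 3 (88.2 against 84.5 CPM). Against region-matched other spots, described last, it was not called (−0.31, adjusted p = 0.343 by edgeR). Nor was it called without any spot holding a choroid plexus rule gene (adjusted p = 0.0643 by edgeR).

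**Figure D2:**
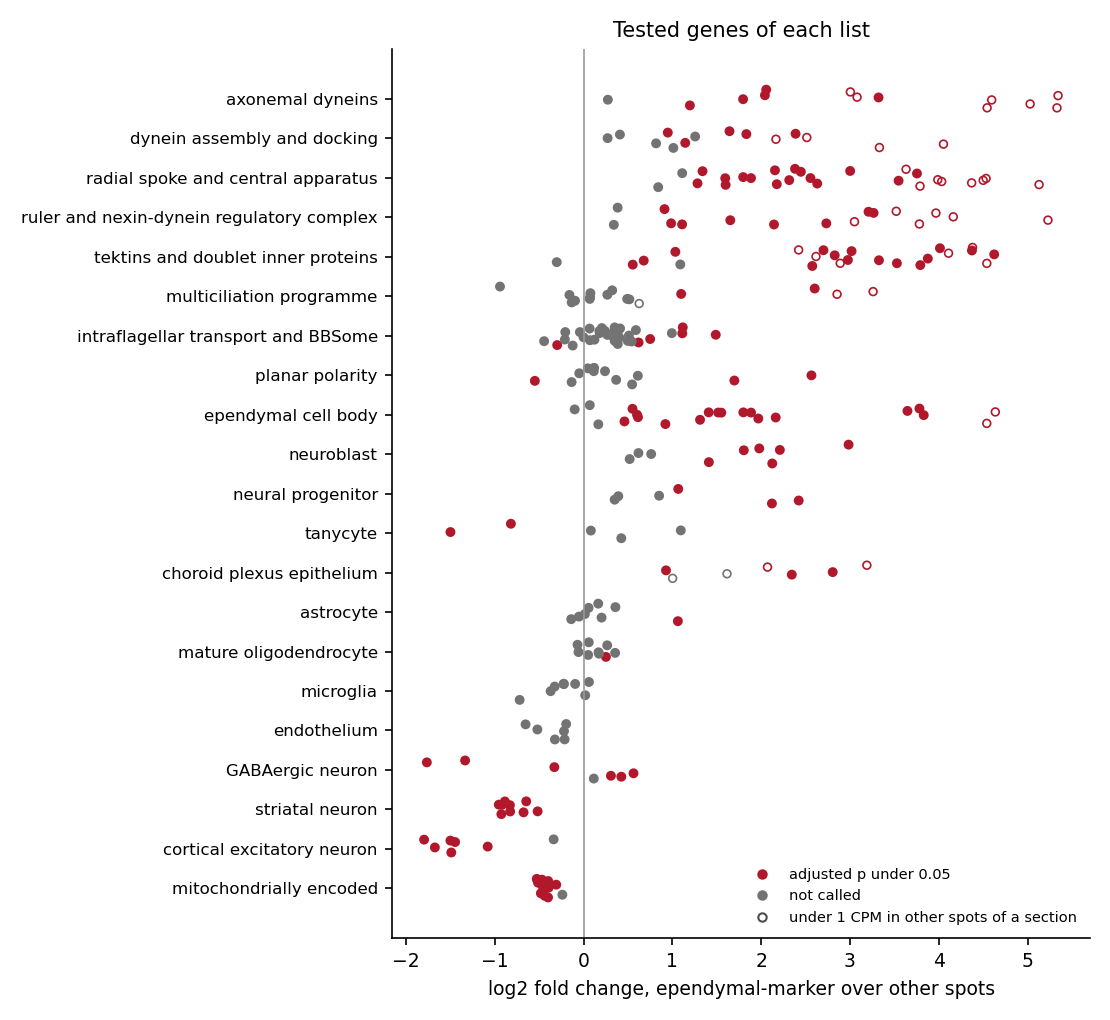
Log2 fold changes (horizontal axis) of the tested genes of each list, ependymal-marker over other spots, 1 point per gene. Red points were called, gray points were not, and open points mark genes under 1 CPM in the other spots of at least 1 section; 49 of the 61 filled cilium points are red and right of 0, and the striatal and cortical points lie left of 0.

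Genes known from the ependymal cell body and its membranes rose as well: 21 were listed and tested, and of the 19 at 1 CPM or more in the other spots, 16 were called higher and 0 lower, with a median log2 fold change of 1.41. Among all genes past that floor, 7.7% were called higher and 9.78% lower. *Cd24a*, a surface glycoprotein gene of ependymal cells and neuroblasts, stood at 75.6, 105, 167 and 61.9 CPM in the ependymal-marker spots of sections 1 to 4 and at 7.57, 5.83, 7.62 and 6.89 CPM in the other spots. Its lowest ependymal-marker sum lay above its highest other sum, and its log2 fold change was 3.78 ± 0.18, adjusted p = 2.42e-62, with a mean over sections of 3.79 ± 0.62 (SD, n = 4 sections). *Calml4*, a calmodulin-like gene, at 86.7, 44.6, 96.97 and 53.02 against 8.49, 0.916, 2.05 and 2.50 CPM, and *Hdc*, which encodes the histamine-forming enzyme histidine decarboxylase, at 20.02, 21.3, 30.9 and 11.8 against 1.21, 0.750, 0.790 and 0.380 CPM, were the 2 members that passed the filter through the ependymal-marker spots alone. The whole list summed to 6108 and 4304 CPM in the ependymal-marker spots of sections 1 and 4. In the choroid plexus spots left out there, the list summed to 5456 and 6546 CPM, and *Calml4* stood at 232 and 237 CPM.

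Abundant members of the same list changed by less. *Dbi*, a diazepam binding inhibitor, was counted at 1793, 1818, 2490.2 and 1110.5 CPM against 658, 522, 561 and 491 CPM (1.55 ± 0.08, adjusted p = 3.15e-57). *Nnat*, the imprinted neuronatin gene, stood at 729.5, 849.6, 778 and 445 against 223, 158, 142 and 150.5 CPM (1.97 ± 0.08, adjusted p = 6.65e-74). *Vim*, the intermediate filament gene vimentin, stood at 82.3, 138, 212 and 64.8 against 28.9, 36.4, 35.1 and 21.8 CPM (1.89 ± 0.13, adjusted p = 6.29e-37), and *Ezr*, whose product ties microvilli to actin, rose by 1.31 ± 0.13, adjusted p = 6.18e-19. For each of these genes the sections did not overlap between the groups. *Tm4sf1* (2.16), *Sox9* (1.80), *Gfap* (1.52), *Sox2* (1.41), *Gja1* (0.92), *Clu* (0.61), *Slc1a3* (0.60), *Igfbp5* (0.55) and *Aqp4* (0.46), several of which astrocytes also express, were called higher, as log2 fold changes, and *Aqp4* was not called without section 3 (0.25, adjusted p = 0.499 by edgeR). *S100b*, often used as an ependymal marker, stood at 173, 119, 203 and 212 against 169.5, 155, 169.9 and 180.3 CPM (−0.10 ± 0.10, adjusted p = 0.585) and was not called.

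**Figure D3:**
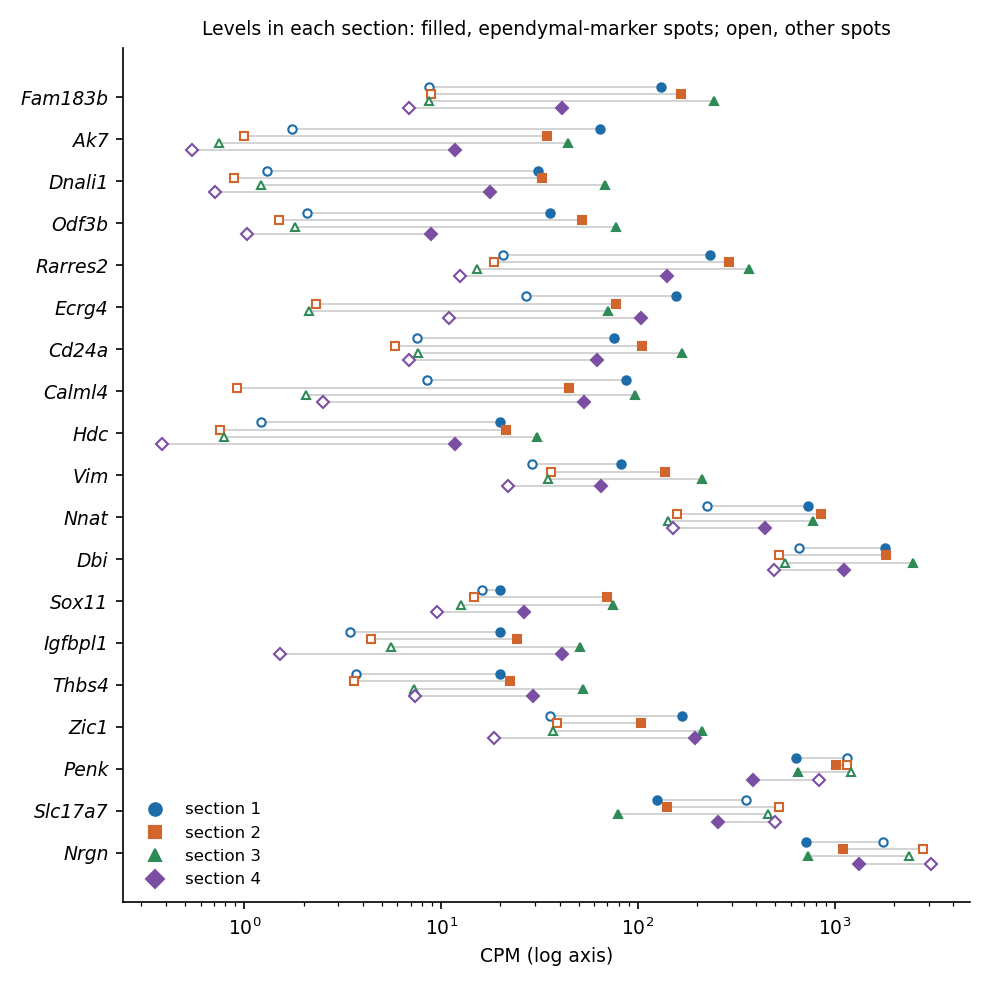
CPM (log axis) of 19 genes in the ependymal-marker spots (filled) and the other spots (open) of sections 1 to 4, marked by shape and colour, with a gray line joining the pair of each section. Filled points lie right of open points in every section for the 16 genes from *Fam183b* to *Zic1* and left of them for *Penk*, *Slc17a7* and *Nrgn*. *Ak7*, *Dnali1*, *Calml4* and *Hdc* passed the filter through the ependymal-marker spots alone.

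The study reports the secreted products *Rarres2*, *Ecrg4*, *Ttr* and *Enpp2* as raised where oligodendrocyte progenitor cells (OPCs) were abnormally dense, against places where they were not. It also saw larger areas of Ecrg4 and Enpp2 signal there by immunofluorescence, and of *Ttr* by in situ hybridization. Those places were not identified here, and the present contrast is another one. All 4 genes were called higher in the ependymal-marker spots, with unequal spread over the sections. *Rarres2*, which encodes chemerin, stood at 231, 289, 366 and 141 CPM in the ependymal-marker spots of sections 1 to 4 and at 20.6, 18.6, 15.2 and 12.4 CPM in the other spots. The sections did not overlap, and the log2 fold change was 3.83 ± 0.12, adjusted p = 4.25e-116, with a mean over sections of 3.89 ± 0.51 (SD, n = 4 sections). Within the ependymal-marker spots it rose with the score, from 45.6, 94.1, 90.4 and 35.9 CPM at scores of 3 to under 6 to 494, 498, 655 and 343 CPM at 6 or more. Sections 2 and 3 alone gave a log2 fold change of 4.09. Without any spot holding a choroid plexus rule gene it was 3.49 (adjusted p = 7.03e-81 by edgeR). The 7 choroid plexus genes of the rule, whose part in the result was not tested, summed to 147, 32.4, 108 and 153 CPM in the ependymal-marker spots and to 49.5, 13.8, 13.5 and 24.6 CPM in the other spots. In the spots left out as choroid plexus spots, *Rarres2* stood at 152, 347 and 150 CPM in sections 1, 3 and 4, and section 2 had 0 such spots.

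*Ecrg4*, which encodes a secreted peptide precursor, stood at 156, 77.1, 70.5 and 103 CPM against 26.9, 2.30, 2.14 and 10.9 CPM, a log2 fold change of 3.65 ± 0.19, adjusted p = 2.91e-58. Its ratio was largest in sections 2 and 3, and the mean over sections was 3.98 ± 1.28 (SD, n = 4 sections). In the spots left out as choroid plexus spots, *Ecrg4* stood at 621, 224 and 868 CPM in sections 1, 3 and 4. *Ttr*, the thyroid hormone carrier transthyretin, abundant in choroid plexus, stood at 12945, 41.6, 811 and 8536 CPM against 4314, 6.05, 31.2 and 1109.8 CPM. The ependymal-marker sums were higher in 4 of 4 sections, but the groups overlapped, since the other spots of sections 1 and 4 lay above the ependymal-marker spots of sections 2 and 3. The log2 fold change of *Ttr* was 2.81 ± 0.11, adjusted p = 7.69e-83, its mean over sections 3.01 ± 1.28 (SD, n = 4 sections). Without any spot holding a choroid plexus rule gene, it was 1.48 for *Ttr* and 3.07 for *Ecrg4* (adjusted p = 4.51e-26 and 2.09e-20 by edgeR). With edgeR's robust dispersion, which lets genes of unequal sections keep their own spread, the adjusted p rose to 0.121 for *Ttr* and 0.0699 for *Ecrg4*, above the threshold. limma-voom, whose shared spread weighed 10.5 degrees of freedom, gave 3.54e-05 and 8.00e-06.

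*Enpp2*, the autotaxin gene, which oligodendrocytes and choroid plexus express, differed between the sections in direction. It stood at 943, 80.1, 198 and 842 CPM against 292, 124, 138 and 234 CPM, higher in sections 1, 3 and 4 and lower in section 2. The pooled log2 fold change was 0.93 ± 0.10, adjusted p = 1.68e-16, but the mean over sections was 0.86 ± 1.15 (SD, n = 4 sections), and with sections 2 and 3 alone it was −0.21 (adjusted p = 0.448 by edgeR). Without every spot holding any of the 7 choroid plexus genes it was 0.15 (adjusted p = 0.618 by edgeR), and the call was also lost with DESeq2 (adjusted p = 0.463) and with robust dispersion (0.44). In spots scoring 6 or more it reached 982 and 1545 CPM in sections 1 and 4, and 84.0 and 194 CPM in sections 2 and 3.

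**Figure D4:**
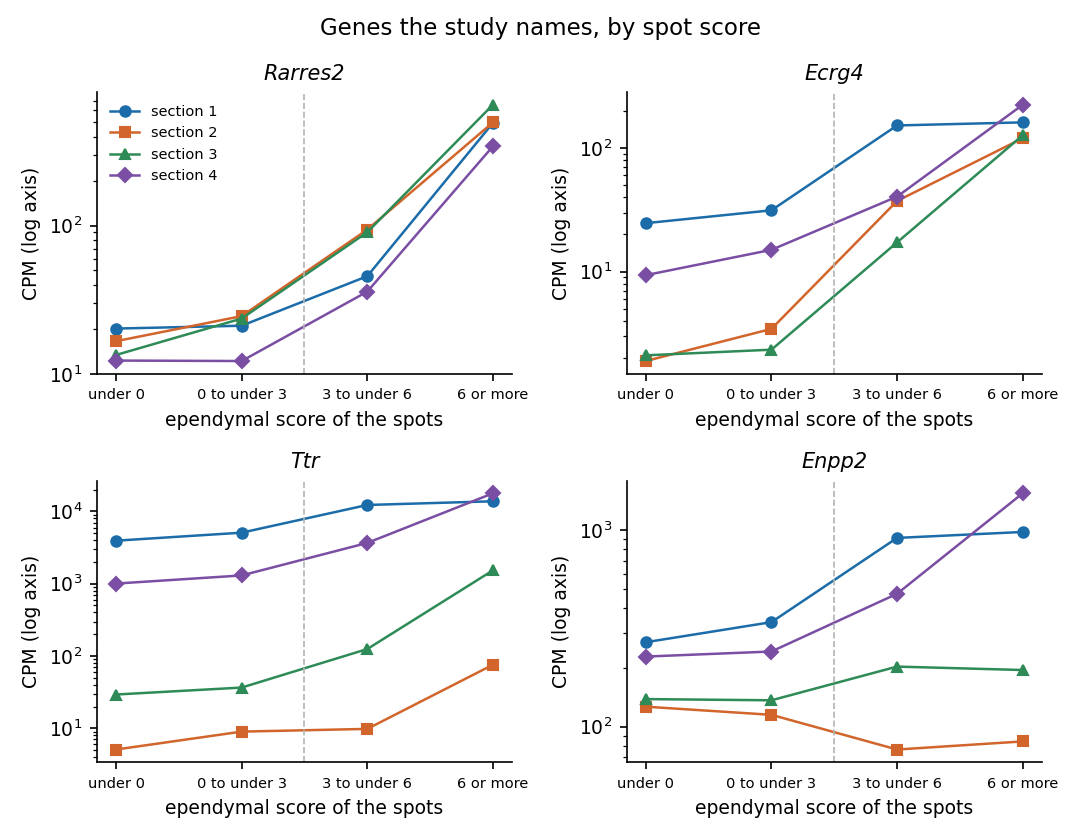
CPM (log axes) of *Rarres2*, *Ecrg4*, *Ttr* and *Enpp2* in spots grouped by ependymal score, 1 line per section, with a dashed line at the threshold of 3. *Rarres2* climbs to 343 to 655 CPM at scores of 6 or more in all 4 sections, while *Enpp2* climbs in sections 1 and 4 and ends at 84.0 CPM in section 2, below its level at scores under 0.

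The remaining markers of choroid plexus epithelium were read as a list of 10, *Ttr* and *Enpp2* included. Of 7 tested, 3 were at 1 CPM or more in the other spots and all 3 were called higher (*Ttr*, *Enpp2* and *Msx1*), and the summed level was 13979, 142, 1051 and 9467 CPM in the ependymal-marker spots against 4628, 135, 175 and 1357 CPM in the other spots. The ratios of the sums were 3.02, 1.05, 6.00 and 6.98 in sections 1 to 4, lowest in section 2. In the spots left out as choroid plexus spots it was 83798 CPM in section 1 and 105417 CPM in section 4. The transcription factor gene *Msx1*, at 22.2, 10.1, 13.2 and 26.5 against 3.93, 2.55, 2.60 and 3.15 CPM (2.35 ± 0.38, adjusted p = 5.87e-08), was higher in all 4 sections. *Otx2*, at 15.6, 6.08, 17.6 and 17.7 against 3.30, 0.389, 1.12 and 1.57 CPM, entered through the ependymal-marker spots alone. *Sostdc1* (2.07 ± 0.52 on the log2 scale) was under 1 CPM in the other spots of sections 2 and 3, so its value is a description. The part of choroid plexus tissue in these spots was not tested. Of the 7 choroid plexus rule genes, *Folr1*, *Clic6*, *Kl* and *Prlr* were higher in 4 of 4 sections, *F5* in 3, and *Kcnj13* and *Slc4a5* in 2. *Folr1* had 9, 4, 10 and 10 UMIs in the ependymal-marker spots and *Kcnj13* 3, 0, 0 and 3. As spots holding at least 3 of these genes had been left out, the rule itself limits their levels. The choroid plexus spots of sections 1 and 4 in turn held the 7 rule genes at 481 and 708 CPM and the listed cilium genes at 1712 and 2330 CPM.

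*Nf1* itself was counted from few UMIs, 8, 13, 6 and 2 in the ependymal-marker spots of sections 1 to 4. It stood at 17.8, 13.2, 13.2 and 5.89 CPM against 7.37, 4.86, 5.95 and 6.29 CPM, higher in sections 1, 2 and 3 and lower in section 4, with a log2 fold change of 1.03 ± 0.35, adjusted p = 0.0247. The call was lost without section 1, 2 or 3 (0.97, 0.84 and 1.04, adjusted p = 0.121, 0.283 and 0.0719 by edgeR) and with DESeq2 (adjusted p = 0.0813). As all spots come from *Nf1*+/- tissue, the comparison is between places in the tissue and not between genotypes.

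Genes of migrating neuroblasts were higher in the ependymal-marker spots. All 9 listed were tested, 6 were called higher and 0 lower, and their summed level was 200, 299, 476 and 242 CPM against 97.5, 101, 102 and 78.7 CPM, without overlap. All 9 were at 1 CPM or more in the other spots, where 7.7% of all genes were called higher and 9.78% lower. *Igfbpl1*, a gene of immature neurons, stood at 20.02, 24.3, 50.7 and 41.2 CPM against 3.44, 4.39, 5.58 and 1.52 CPM (2.98 ± 0.30, adjusted p = 8.51e-19), and was not called against region-matched spots (0.89, adjusted p = 0.0963 by edgeR). The interneuron transcription factor genes *Dlx1* (35.6, 36.5, 104 and 44.2 against 8.88, 11.2, 11.9 and 11.9 CPM, 2.13 ± 0.21, adjusted p = 5.13e-20) and *Dlx2* (15.6, 42.6, 72.7 and 17.7 against 6.55, 7.41, 8.74 and 7.22 CPM, 2.21 ± 0.25, adjusted p = 8.58e-16) rose in each section. *Sox11* stood at 20.02, 69.96, 74.9 and 26.5 against 16.2, 14.7, 12.6 and 9.50 CPM (1.80 ± 0.20, adjusted p = 6.24e-16), and *Sp8* (1.98) and *Sp9* (1.41) rose too. *Dcx*, the doublecortin gene, had a log2 fold change of 0.76 ± 0.31, adjusted p = 0.0712 and *Dlx6os1* one of 0.62 ± 0.24, adjusted p = 0.0562, so that neither was called. The neuroblast sum was highest in spots scoring 6 or more in sections 2, 3 and 4, at 399, 565 and 292 CPM, and level in section 1, at 201 CPM from 3 to under 6 and 199 CPM above.

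Genes of neural progenitors were read next. Of 8 listed, 6 were tested, all at 1 CPM or more in the other spots, and 3 were called higher, 0 lower and 3 were not called. Among all genes past that floor, 7.7% were called higher and 9.78% lower. *Thbs4*, which astrocytes of the ventricle wall express, stood at 20.02, 22.3, 52.9 and 29.5 against 3.69, 3.61, 7.30 and 7.33 CPM, apart in every section (2.42 ± 0.28, adjusted p = 1.43e-14). *Egfr*, the growth factor receptor of activated progenitors, rose by 1.07 ± 0.33, adjusted p = 0.0114, but was lower in section 1 (2.22 against 6.69 CPM). Its call was lost without section 2 (0.38, adjusted p = 0.765 by edgeR), with DESeq2 (adjusted p = 0.299) and with limma-voom (0.0908). The proliferation genes *Mki67* and *Top2a* did not pass the filter and were not tested, with 2, 8, 8 and 0 and 0, 21, 7 and 0 UMIs in the ependymal-marker spots. Tanycytes, the ependymal cells of the third ventricle floor, gave no gene called higher among 5 tested and 2 called lower, *Dio2* (−0.82 ± 0.23, adjusted p = 0.00338) and *Frzb* (−1.50 ± 0.37, adjusted p = 0.000758), both lost without section 2 (adjusted p = 0.213 and 0.241 by edgeR) and with limma-voom. These counts stand beside 7.7% called higher and 9.78% lower among all genes past that floor. They are not read as a result about tanycytes. *Col23a1*, a collagen gene, had an unadjusted p under 0.05 (1.10 ± 0.43, adjusted p = 0.0586 by edgeR) and was the 1 gene of the list that limma-voom called higher (adjusted p = 0.0204). The defining tanycyte gene *Rax* had 1 UMI in all the ependymal-marker spots.

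Counts for markers of other glia and of vessels stand beside 7.7% called higher and 9.78% lower among all genes past the same floor. They are not read as a result about these cell types. Of 9 mature oligodendrocyte genes, 1 was called higher and 0 lower. Of 8 astrocyte genes, 1 was called, *Mlc1*, at 294, 322, 386 and 277 CPM against 135, 146, 159 and 125 CPM (1.06 ± 0.09, adjusted p = 2.93e-25), and the list's summed level was 2264 to 3002 against 2035 to 2340 CPM. None of 8 microglial and none of 6 endothelial genes was called by edgeR, with summed levels of 268 to 536 against 426 to 484 CPM and of 179 to 245 against 206 to 263 CPM. At an unadjusted p under 0.05, 3 microglial and 3 endothelial genes were lower and 0 higher, and limma-voom called 0 of either list. Of 8 OPC genes, *C1ql1* was called (0.67 ± 0.24, adjusted p = 0.0278), and of 7 fibroblast genes, *Igf2* (1.199, adjusted p = 5.72e-06), at 62.3 and 76.6 CPM in sections 1 and 4 and 11.2 and 22.0 CPM in sections 2 and 3, where the pooled change was −0.05. Neither was called by limma-voom (adjusted p = 0.0777 and 0.0550).

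Genes of striatal projection neurons were lower: all 9 tested were called lower, and their summed level was 1784, 2804, 1783 and 1057 CPM against 3351, 3418, 3261 and 2465 CPM, lower in 4 of 4 sections. Among all genes at 1 CPM or more in the other spots of every section, 9.78% were called lower. *Penk*, the enkephalin precursor gene, stood at 634, 1019.9, 648 and 386 against 1156, 1159, 1211 and 833 CPM (−0.83 ± 0.08, adjusted p = 1.07e-18). *Ppp1r1b*, which encodes DARPP-32, fell by 0.92 on the log2 scale and *Tac1*, the substance P precursor gene, by 0.89. Of 7 cortical excitatory genes, 6 were called lower. *Slc17a7*, the vesicular glutamate transporter of cortical neurons, stood at 125, 139.9, 79.3 and 256 against 353, 522, 461 and 496 CPM (−1.80 ± 0.10, adjusted p = 4.77e-48), and *Nrgn*, a postsynaptic calmodulin-binding gene, at 714, 1103, 736 and 1328 against 1766, 2828, 2381 and 3097 CPM (−1.50 ± 0.08, adjusted p = 8.27e-53). *Tbr1* fell by 1.45 and *Neurod6* by 1.67 on the log2 scale.

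GABAergic genes divided. *Gad2*, a glutamate decarboxylase gene, stood at 298, 320.4, 304 and 327 against 239, 202, 189 and 157 CPM (0.56 ± 0.09, adjusted p = 4.05e-08), and *Slc32a1* (0.43) and *Gad1* (0.31) were called higher too. Against region-matched other spots, described last, none of these 3 was called (0.02, −0.096 and 0.08, adjusted p = 0.965, 0.746 and 0.805 by edgeR). The interneuron genes *Pvalb* (−1.33 ± 0.13, adjusted p = 4.22e-21) and *Vip* (−1.76 ± 0.23, adjusted p = 3.49e-12) fell, *Pvalb* not against region-matched spots (−0.38, adjusted p = 0.246 by edgeR), and so did *Npy* (−0.33 ± 0.09, adjusted p = 0.00232), which turned to 0.56 against region-matched spots (adjusted p = 0.00126 by edgeR). Of 6 genes listed under subcortical excitatory neurons, 2 were called higher, 1 was called lower and 3 were not called. These counts are not read as a result about those neurons. *Zic1*, a gene of septal and olfactory bulb neurons, stood at 167, 103, 212 and 194 against 35.8, 38.7, 37.2 and 18.6 CPM (2.17 ± 0.12, adjusted p = 1.35e-48) and was not called against region-matched spots (0.44, adjusted p = 0.204 by edgeR). *Calb2* rose by 0.81 ± 0.19, adjusted p = 0.00023 but was lower in section 3 and not called by limma-voom (adjusted p = 0.127), and *Rora* was called lower (−0.61 ± 0.20, adjusted p = 0.0154), a call lost without section 2 (adjusted p = 0.232), under total-UMI scaling (0.0669) and with limma-voom (0.0973), and not made against region-matched spots (−0.25). Of the 13 mitochondrially encoded genes, 12 were called lower, among them *mt-Co1*, which fell by 0.47, and *mt-Nd5*, which fell by 0.53 on the log2 scale, in 4 of 4 sections each.

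The 5 largest falls among the 1075 called genes with at least 20 UMIs in the other spots of every section had 0 UMIs in the ependymal-marker spots, so they are given as bounds from a floor of 3 UMIs over that group. *Kcns3*, a potassium channel subunit gene, had 72, 200, 103 and 113 UMIs in the other spots and was at least 3.76-fold lower. *Serpinb8*, a protease inhibitor gene, was at least 2.50-fold lower, *Insl6* at least 2.00-fold, *Susd3* at least 1.84-fold and *Krt80* at least 1.55-fold. By edgeR, the call on *Kcns3* held in every fit that left out 1 section. That on *Serpinb8* was lost without section 2 (adjusted p = 0.0993), that on *Insl6* without section 1 or 2 (0.0728 and 0.133), that on *Susd3* without section 1, 2 or 3 (0.0527, 0.122 and 0.0950) and that on *Krt80* without any 1 section (0.0800 to 0.194). *Insl6*, *Susd3* and *Krt80* were not called in sections 2 and 3 alone (adjusted p = 0.106, 0.0845 and 0.171), nor *Krt80* under total-UMI scaling (0.0541). Without any spot holding a choroid plexus rule gene, *Kcns3*, *Serpinb8* and *Susd3* were not called (0.0842, 0.0646 and 0.172). With DESeq2, *Kcns3* was called (adjusted p = 0.0109), but *Serpinb8*, *Insl6*, *Susd3* and *Krt80* were not (0.0661, 0.140, 0.147 and 0.241).

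The ependymal-marker spots of a section fell into 8 to 10 of its 10 expression clusters. To compare spots of like make-up, each was also set against up to 3 other spots of the same expression cluster nearest in total UMIs. Genes were divided into odd and even file positions, and the clusters used for a gene came from the set without it. Sections 1 and 4 gave 123 and 120 matched spots with either set. Sections 2 and 3 ran short, with 144 and 123 for 1 set and 141 and 126 for the other. Matching by UMIs alone gave 204 and 180 there. Picked spots with fewer than 3 matches stayed in the sums, so make-up was matched only in part in sections 2 and 3. Of 9698 genes passing the filter, 216 were called higher (2.23%) and 90 lower (0.928%), and 290 of these were called in the same direction against all other spots. Here too a gene can enter through the ependymal-marker spots alone, so the lists are given for the 8245 genes that reached the filter's minimum, 10 UMIs at the median depth, in the matched spots of every section, of which 1.58% were called higher and 1.08% lower. Of 11 such cilium genes, 6 were higher and 0 lower, and their median log2 fold change was 0.73 against 1.03 over all other spots. *Fam183b* stood at 2.51. Of 15 ependymal cell body genes, 10 were higher (median 0.68 against 1.31). *Rarres2* stood at 2.97 and *Ttr* at 1.81, both called. Of the neuroblast genes, 3 reached the minimum (median 0.48 against 1.41), and *Dlx1*, *Dlx5* and *Sp9* were not called (adjusted p = 0.164, 0.549 and 0.215 by edgeR). Among those below the minimum, *Sox11* (1.64) and *Dlx2* (0.92) were still called higher (adjusted p = 1.17e-06 and 0.0132 by edgeR). *Igfbpl1*, *Sp8*, *Dcx* and *Dlx6os1*, also below it, were not called. The striatal and cortical lists gave 5 of 9 and 2 of 4 genes called lower, with medians of −0.41 and −0.25 against −0.83 and −1.47. The size of the change was smaller after matching for 9 of 11 cilium, 13 of 15 cell body and 3 of 3 neuroblast genes, and the difference between the lists was not tested.

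**Figure D5:**
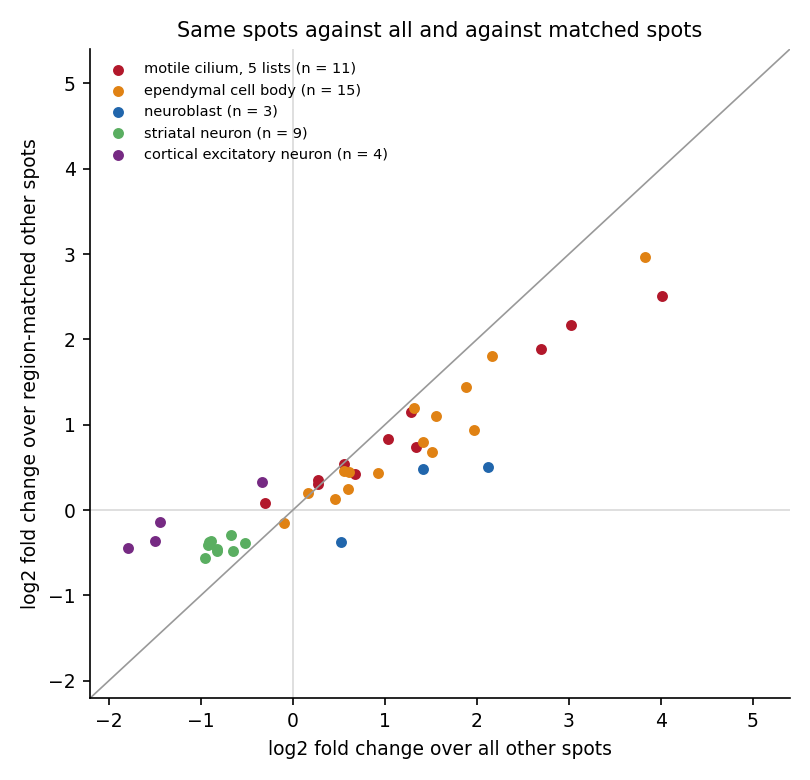
Log2 fold changes over all other spots (horizontal) and over region-matched other spots (vertical) for the genes of 5 lists that reached the minimum in the matched spots of every section, 1 point per gene, with the line of equality in gray. Most points with a rise lie below the line; the medians on the vertical axis are 0.73 for cilium (n = 11), 0.68 for cell body (n = 15) and 0.48 for neuroblast (n = 3) genes.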

How the data were processed

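Spatial transcriptomes were made with the Visium fresh frozen protocol. The authors deposited UMI counts per gene and spot for each of 4 sections, and the submitters' processing notes name Space Ranger 1.3.1 and the build mm10. Spots were picked as described, with spots under 500 UMIs left out, and their UMIs were added up. The sums were tested with edgeR 4.0.16 in R 4.3.3 (TMM, filterByExpr, quasi-likelihood test, Benjamini-Hochberg, threshold 0.05), after the 7 rule genes and the 7 choroid plexus rule genes had been taken out of the table. The section is the block because both sums come from the same tissue, and the deviations of the 2 sums of a section correlated at 0.158 to 0.225. The members and gene lists were chosen with earlier results of these data known, so the lists are described by counts and medians. Genes were named by size (the 10 largest rises and 5 largest falls with the same direction in every section), as the study's genes, or as list members with the smallest p, and all members of the ciliation programme, cell body, neuroblast, progenitor and tanycyte lists could be named. Alternatives used DESeq2 1.42.0, limma 3.58.1 and scikit-learn 1.9.0. A few listed genes are not reported here. Spots were not assigned to positions in the tissue, and no doublet or deconvolution step was applied. The depth of the ependymal-marker sums (339491 to 986338 UMIs) limits what can be seen of genes with few UMIs.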

Additional observations from a re-analysis of the deposited data

Results flagged for a closer look

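Of 109 genes compared, 6 had 1 section far from the other 3 in the log2 ratio of ependymal-marker over other spots, and chance gives about 1 in 20. *Gm10714* stood at 6.36 in section 3, against 4.83 to 5.07 in the others. *Dnaaf1* stood at 2.15 in section 1, against 5.03 to 5.28. *1110017D15Rik* stood at 3.21 in section 3, against 2.65 to 2.73. *Ccno*, with 3 UMIs in the ependymal-marker spots, stood at 0.53 in section 2, against −0.97 to −0.87. *Aqp4* stood at 1.19 in section 3, against 0.33 to 0.41, and *Npy* at −0.68 in section 3, against −0.13 to −0.04.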

How the results depend on the processing

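Leaving out 1 section at a time gave 855 to 1229 genes higher, 936 to 1312 lower and 67 to 87 motile cilium genes higher. The main fit called 80 of 92 tested cilium genes higher. Except under the filter on the other spots, these cilium counts include genes under 1 CPM in the other spots. They are therefore a description and not counted as support. Leaving out every spot with a choroid plexus rule gene kept 15, 53, 37 and 15 ependymal-marker spots in sections 1 to 4. In section 1, 678 of 1359 other spots were kept. Of 12833 genes tested in this setting, 447 were higher and 553 lower, and 38 of 60 cilium genes tested were higher. What a call lost in this setting owes to choroid plexus tissue and what to fewer spots was not tested. With UMI-matched other spots, 554 genes were higher and 617 lower, and 22 of 30 cilium genes tested were higher. Region-matched other spots gave 216, 90 and 21 of 30. Both matchings tested 9698 genes, against 14086 in the main fit, so their counts are not comparable with the main ones. Fewer genes were lower with total-UMI scaling (828), DESeq2 (733), no replicate block (736) and limma-voom (849). When genes were filtered on the other spots, 50 of 61 cilium genes tested were higher. Robust dispersion, limma-voom, the filter on the other spots and the use of sections 2 and 3 alone were chosen after seeing the data.

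The direction turned for 8 of the named genes, as log2 fold changes. Without any spot holding a choroid plexus rule gene, *C1ql1* was −0.0079. Against region-matched spots, *Calb2* was −0.39, *Npy* 0.56 and *Slc32a1* −0.096. In sections 2 and 3 alone, *Calb2* was −0.36, *Enpp2* −0.21 and *Igf2* −0.048. *Gad1* was −0.013 with spots picked by *Foxj1*, *Ccdc153*, *Tmem212* and *Dynlrb2*, and −0.096 with choroid plexus spots kept. *S100b*, not called, was 0.0073 under total-UMI scaling and ran from −0.19 to 0.055 when a section was left out. The cause was not tested.

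Beside the calls described above as lost, edgeR's adjusted p passed above 0.05 without section 1 for *Ift172* (0.167), without section 2 for *Rfx4* (0.0664), without section 3 for *Npy* (0.26), without section 4 for *Gad1* (0.126) and *Igf2* (0.0538), without section 1 or 4 for *Calb2* (0.0693 and 0.147), without section 3 or 4 for *C1ql1* (0.268 and 0.274), and without section 2, 3 or 4 for *Kifap3* (0.0628, 0.0586 and 0.0817).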
